A study of Equus caballus with 33 samples.

Results

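The comparison described here set cartilage explants kept in medium for 3 days without any cytokine against explants of day 0. It rested on 6 of the 33 arrays of the study, the 3 unstimulated arrays of day 3 and the 3 unstimulated arrays of day 0, chosen by the treatment and day in the sample titles and paired by replicate number. The study measured gene expression in articular cartilage from the distal end of the metacarpal of 3 horses free of joint disease, collected after death. Explants were held in culture medium for 48 h and then in medium with 10 ng/mL of recombinant equine interleukin-1β or without it, with harvests up to day 27. Neither group compared here received interleukin-1β. The labels do not say whether day 0 explants were taken before or after the 48 h, nor do they give age, sex or breed. For each sample 2 explants were pooled and minced, and trypsin followed by type II collagenase freed the cells before RNA was extracted, at day 0 and at day 3 alike. RNA therefore came from cells released from the matrix, and fewer cells of a type and less RNA per cell cannot be told apart in such bulk samples.

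Cartilage has no blood vessels, and its resident cell is the chondrocyte, which makes a matrix of type II collagen and aggrecan. An explant keeps chondrocytes in that matrix, but cutting and free-swelling culture remove the joint's load, fluid and blood-borne factors. Chondrocytes are known for losing their own programme and turning to a fibroblast-like one when they are grown without matrix, and for answering injury with proteases, immediate-early genes and inflammatory mediators. The comparison asks what the first days in culture do to these cells when no cytokine is added.

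Signals are RMA values on a log2 scale, so that a difference of 1 is a change of 2-fold. The array medians were between 5.16 and 5.24 at day 0 and between 5.23 and 5.35 at day 3. Signals below these medians were not shown to be above background, so differences that start or end there are uncertain in size. Examples are CYP1A1 and CA8 at day 0, COL1A1 and BMPR1B on both days, and IGFBP5, CMKLR2 and LOC100058496 at day 3. Correlations between arrays of a group ran from 0.976 to 0.983, and 0 pairs held identical values. The replicate number accounted for 46.5% of the variance among the 6 arrays, the day for 25.5%, and 27.9% was left. There were more replicate numbers than days, and the shares were not adjusted for that, so they do not rank number above day. Precision is limited by there being 3 arrays a group.

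The array of day 0, replicate 1, stood apart in a few genes. MHCX1, whose symbol is that of a major histocompatibility gene, read 3.25 there and 11.44 to 12.33 in the other 32 arrays. LBP, the lipopolysaccharide-binding protein of the acute phase, read 8.34 there and 3.80 to 4.53 elsewhere. Over all probe sets the deviations of that array had a median correlation of 0.12 with arrays of its own number and of -0.08 with other numbers. Its own-number value was the lowest of the 6 arrays compared, the rest lying between 0.15 and 0.21. The cause was not tested, and counts without replicate 1 are given with the main ones.

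In limma 179 of the 25923 probe sets (0.691%) had an adjusted p under 0.05, 65 of them higher at day 3 (0.251%) and 114 lower (0.44%). The 179 stood for 157 named genes, with 18 probe sets that had no symbol and 2 that had several. Their differences ranged from 0.49 to 3.49 in size with a median of 1.02, and 93 (0.359%) reached 2-fold, 36 higher and 57 lower. All 3 pairs went the same way in 64 of the 65 higher probe sets and in 114 of the 114 lower ones. Day 0 and day 3 values did not overlap in 164 of the 179, against 14.2% of all probe sets. The calls were chosen for large differences in these same arrays, so neither the agreement of pairs nor the lack of overlap is separate support. Before adjustment, 2716 probe sets (10.5%) had a p under 0.05.

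These calls borrowed the spread of all 33 arrays, stimulated ones included. With the 6 arrays alone 0 probe sets passed, the lowest adjusted p was 0.0551, and 2910 had an unadjusted p under 0.05. The count also fell when any replicate number was left out: limma gave 21 calls without replicate 1, 10 without replicate 2 and 30 without replicate 3, of which 17, 7 and 25 were among the 179. A gene is called "without" a replicate below where it passed in the fit that left that number out, and lost where it did not. LOC100058496 was called in all 3 of these fits, and CDH1, LOC100055383, TLR6, CCND1 and ZDHHC21 in 2 of them, as found after their values were seen. Without the replicate block limma gave 104 calls, all among the 179, and 23 genes described as changed below had an adjusted p above 0.05 in that fit, from 0.0524 for CPE to 0.444 for CPVL: CILP, FRZB, TIPARP, POR, ANGPT2, FGF1, CPVL, CPE, LOC100053600, CA8, LRGUK, CAV1, THBS3, SGCD, SSTR2, TIMD4, SESN2, BTG1, BMPR1B, AQP3, KCNN4, NT5E and VARS1. Another round of quantile normalisation ended the calls of FRZB, CA8, POR, SESN2, BTG1 and VARS1, at adjusted p from 0.0524 to 0.0645. In the 18 unstimulated arrays alone limma gave 54 calls, and 33 of the 62 called genes described here did not pass there, at adjusted p from 0.0547 for CYP1A1 to 0.248 for CA8. The 33 were CYP1A1, TIPARP, POR, CNMD, ANGPT2, NREP, LRGUK, CA8, GPLD1, SAA1, FGF1, ACLY, SCAP, THBS3, CAV1, ITGA6, SGCD, CMKLR2, P2RY2, SSTR2, TIMD4, SESN2, BTG1, BMPR1B, SLC40A1, NT5E, RRP9, CYCS and the synthetase genes GARS1, YARS1, MARS1, VARS1 and NARS1. The volcano plot shows differences against p-values, with the smallest p-values on the lower side.

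**Figure D1:**
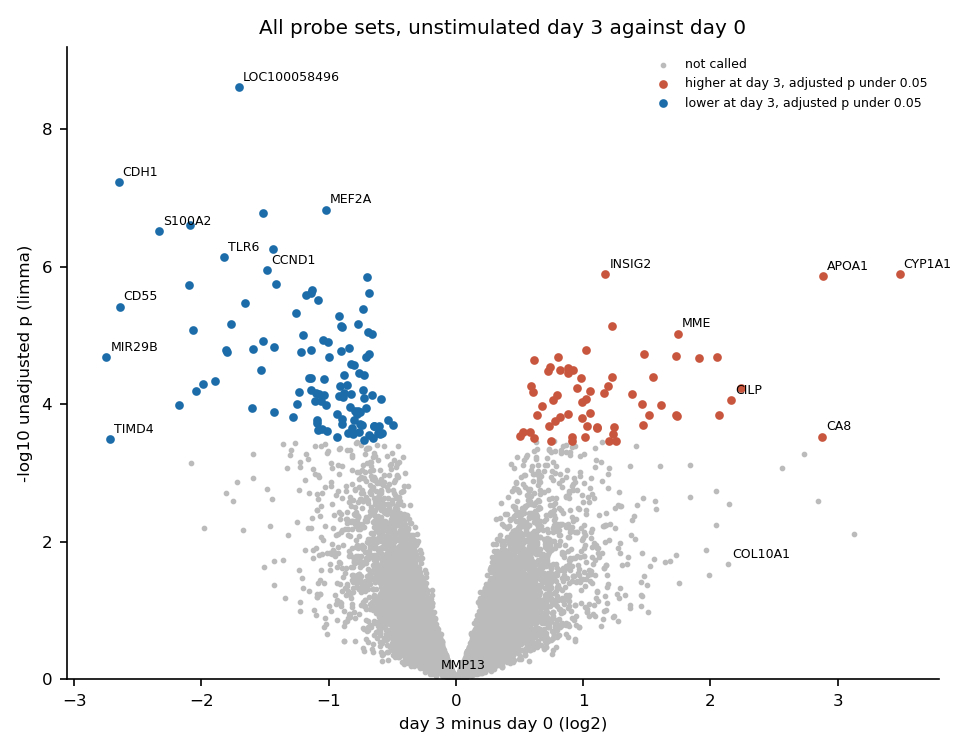
Each point is 1 of 25923 probe sets, with the day 3 minus day 0 difference on the log2 scale on the x axis and the negative log10 of the unadjusted limma p on the y axis. The 65 red points (higher at day 3) and 114 blue points (lower) passed an adjusted p of 0.05, and COL10A1 and MMP13 are labelled among the grey points that did not.

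The largest rise among the called genes belonged to CYP1A1, the cytochrome P450 that is the classic target of the aryl hydrocarbon receptor, a ligand-activated transcription factor. CYP1A1 read 3.74, 4.80 and 4.91 at day 0 and 9.23, 6.92 and 7.76 at day 3. Its groups lay far apart, with the widest step in replicate 1. CYP1A1 rose by 3.49 ± 0.55 (SE; adjusted p = 0.00279), or 11.2-fold. Its day 0 signals lay below the array medians, so that the size of the rise is uncertain. TIPARP, a target and feedback inhibitor of the same receptor, read 8.46, 8.53 and 8.26 at day 0 and 9.50, 9.74 and 8.98 at day 3. All 3 day 3 arrays were above all 3 of day 0, and TIPARP rose by 0.99 ± 0.22 (adjusted p = 0.0313). Of 8 measured genes of this receptor's axis, gathered after these values were seen, the other 6 did not pass. CYP1B1, a further target of the receptor, differed by 0.58 ± 0.30 (adjusted p = 0.535), and the receptor gene AHR itself by 0.28 ± 0.21 (adjusted p = 0.732). EPHX1, the microsomal epoxide hydrolase that acts beside such cytochromes, rose by 1.47 ± 0.34 (adjusted p = 0.036), whereas POR, their electron donor, fell by 0.72 ± 0.17 (adjusted p = 0.0497). CYP1A1 kept its call without replicate 3 and lost it without replicate 1 (adjusted p = 0.0764) or 2 (adjusted p = 0.0782). TIPARP, EPHX1 and POR were lost without each replicate in turn.

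Next in size among the called genes stood APOA1, the chief apolipoprotein of HDL particles. APOA1 read 7.07, 6.57 and 7.28 at day 0 and 9.97, 10.06 and 9.55 at day 3. The day 3 arrays were close to each other and all above those of day 0, and APOA1 rose by 2.89 ± 0.46 (adjusted p = 0.00279), or 7.39-fold. It was the 1 called gene among 26 measured genes of lipid efflux and apolipoproteins, a list with a median of 0.14. Of all probe sets 0.251% were called higher and 0.44% lower. INSIG2, which holds back sterol synthesis in the endoplasmic reticulum, read 8.36, 8.35 and 8.25 at day 0 and 9.89, 9.52 and 9.06 at day 3, without overlap, and rose by 1.17 ± 0.18 (adjusted p = 0.00279). SCAP, the sterol-sensing escort protein that INSIG2 retains, fell by 0.72 ± 0.14 (adjusted p = 0.014), and ACLY, which supplies acetyl-CoA for lipid synthesis, fell by 0.82 ± 0.17 (adjusted p = 0.0195). ACLY was the 1 called gene among 25 measured genes of cholesterol and fatty acid synthesis, whose median was -0.02. APOA1 and INSIG2 were called without replicate 3 only, and SCAP and ACLY were lost without each replicate in turn.

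**Figure D2:**
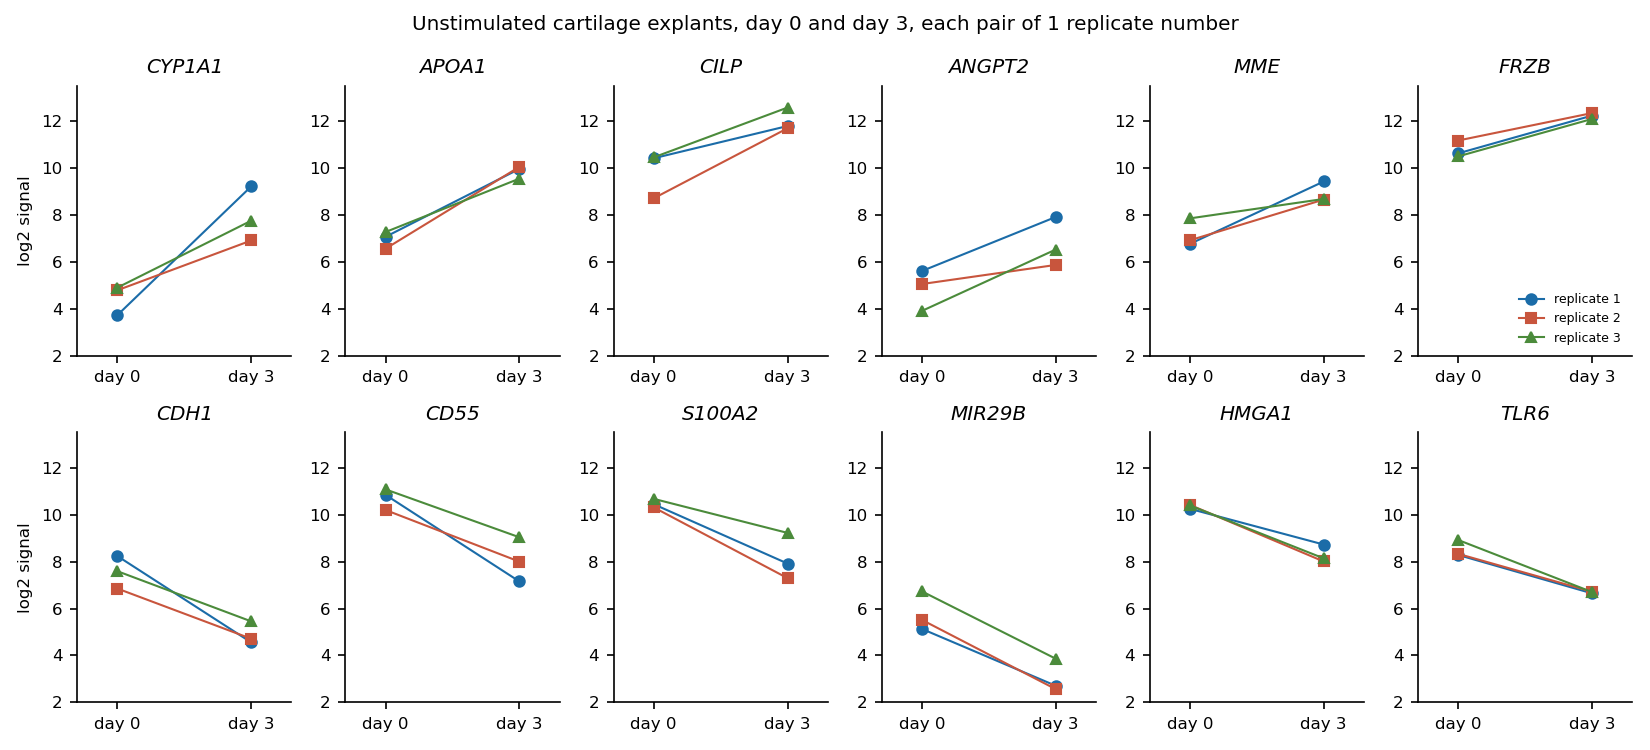
Log2 signal of 12 genes in the 6 unstimulated arrays, with day 0 and day 3 on the x axis and a line joining the 2 arrays of each replicate number. All lines of a gene run the same way, up in the top row and down in the bottom row, and the groups do not overlap in any of the 12.

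Cartilage matrix genes held 2 called members of 27 measured, both higher, against 0.251% of all probe sets, and the list's median was 0.22. CILP, a matrix protein of the cartilage intermediate layer, read 10.42, 8.71 and 10.46 at day 0 and 11.79, 11.70 and 12.58 at day 3. Its day 3 values lay above all of day 0, with a low day 0 array in replicate 2, and CILP rose by 2.16 ± 0.46 (adjusted p = 0.0215). CNMD, or chondromodulin, an inhibitor of vessel growth that marks chondrocytes, read 6.78, 6.22 and 6.38 at day 0 and 7.11, 7.64 and 8.30 at day 3. Each pair moved up, least in replicate 1, and CNMD rose by 1.23 ± 0.25 (adjusted p = 0.0147). FRZB, a secreted Wnt antagonist of articular cartilage, read 10.63, 11.18 and 10.50 at day 0 and 12.24, 12.35 and 12.09 at day 3. Its day 3 arrays were tightly grouped above day 0, and FRZB rose by 1.46 ± 0.31 (adjusted p = 0.0232), the 1 called gene among 41 of the Wnt and hedgehog pathways. CNMD was called without replicate 1 and not without the other two, and CILP and FRZB were lost without each replicate in turn.

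The major matrix genes did not pass. ACAN, which encodes the aggrecan core protein, had a mean of 12.63 ± 0.18 on day 0 and of 12.59 ± 0.23 on day 3 (± SD of 3 arrays), a difference of -0.03 ± 0.24. COL2A1, the type II collagen gene, differed by -0.32 ± 0.48, COMP by -0.55 ± 0.41, the link protein gene HAPLN1 by -0.35 ± 0.16 and the chondrocyte factor SOX9 by -0.39 ± 0.22, with adjusted p from 0.436 to 0.985. Missing the threshold does not show that these levels stayed the same. COL10A1, the collagen of hypertrophic chondrocytes, read 10.40, 5.77 and 7.23 at day 0 and 10.32, 8.96 and 10.53 at day 3. Replicates 2 and 3 were higher at day 3 and replicate 1 was high on both days, which left a difference of 2.14 ± 0.87 (adjusted p = 0.345). Among 17 hypertrophy and mineralisation genes 0 were called and the median was 0.20.

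Of 30 measured fibrous and pericellular matrix genes, which fibroblast-like cells make, 0 were called in limma, the median was -0.01, and 7 had an unadjusted p under 0.05 on the lower side (5.37% of all probe sets did) and 2 on the higher (5.1%). COL1A1 averaged 4.74 ± 0.12 on day 0 and 4.75 ± 0.10 on day 3 (± SD of 3 arrays), and ACTA2, smooth muscle actin, differed by 0.31 ± 0.21 (adjusted p = 0.666). COL6A3 of the pericellular matrix read 11.17, 11.34 and 10.95 at day 0 and 10.34, 9.71 and 9.53 at day 3. The 2 groups were apart by more than their spread, but the difference of -1.29 ± 0.32 had an adjusted p of 0.0569. Among 39 contractile and cytoskeletal genes CAV1, which coats caveolae, was the 1 call, against 0.44% of all probe sets called lower. CAV1 fell by 0.74 ± 0.17 (adjusted p = 0.036), a call that without replicates 2 or 3 was lost. THBS3, a thrombospondin of skeletal matrix, read 7.48, 8.35 and 8.09 at day 0 and 6.08, 6.73 and 7.40 at day 3 and fell by 1.24 ± 0.26 (adjusted p = 0.0193). COL15A1, a basement-membrane collagen, fell by 1.66 ± 0.28 (adjusted p = 0.00413). COL15A1 was called without replicate 3 only, and THBS3 was lost without each replicate in turn.

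Several secreted and surface proteins rose. ANGPT2, an angiopoietin that acts on vessels, read 5.61, 5.06 and 3.91 at day 0 and 7.92, 5.88 and 6.53 at day 3. Every pair moved up and the groups did not overlap, although replicates were widely spread on both days, and ANGPT2 rose by 1.91 ± 0.36 (adjusted p = 0.00986). MME, the surface peptidase neprilysin, read 6.77, 6.93 and 7.86 at day 0 and 9.43, 8.66 and 8.69 at day 3. The step was widest in replicate 1 and narrowest in replicate 3, and MME rose by 1.74 ± 0.31 (adjusted p = 0.00719). FGF1, a growth factor, rose by 1.11 ± 0.26 (adjusted p = 0.038) with overlapping groups, while IGFBP5, which binds insulin-like growth factors, read 7.09, 6.27 and 5.19 at day 0 and 3.76, 3.95 and 4.55 at day 3 and fell by 2.10 ± 0.34 (adjusted p = 0.00318). These were the 2 calls among 44 growth factor and insulin-like growth factor genes, a list with a median of -0.03. Of all probe sets 0.251% were called higher and 0.44% lower. STEAP1, a membrane metalloreductase, rose by 1.23 ± 0.22, CPE, a prohormone peptidase, by 0.98 ± 0.20, NREP by 1.48 ± 0.28, the carboxypeptidase gene CPVL by 1.52 ± 0.34, and LOC100053600 by 2.05 ± 0.39, with adjusted p between 0.00644 and 0.0292. MME, IGFBP5 and STEAP1 were called without replicate 3 only, and ANGPT2, FGF1, CPE, NREP, CPVL and LOC100053600 were lost without each replicate in turn.

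Other rises rested on some replicates more than on others. CA8, a carbonic anhydrase-related protein, read 4.31, 5.03 and 4.71 at day 0 and 8.82, 9.12 and 4.74 at day 3. The pairs of replicates 1 and 2 differed by over 4 and that of replicate 3 by 0.03, so that the groups overlapped and the difference of 2.87 ± 0.68 passed by little (adjusted p = 0.0456). GPLD1, a phospholipase that releases anchored proteins, rose by 1.73 ± 0.39 (adjusted p = 0.0292) with pair differences of 2.92, 2.31 and -0.04. Without replicate 3 both were called, and without replicate 1 the adjusted p was 0.493 for CA8 and 0.448 for GPLD1. LRGUK rose by 1.55 ± 0.31 (adjusted p = 0.0147) with overlapping groups and was lost without each replicate in turn. SAA1, an acute-phase serum amyloid, read 11.74, 11.72 and 9.29 at day 0 and 12.60, 12.31 and 12.68 at day 3. Day 0 of replicate 3 was the low array, and replicates 1 and 2 rose by under 1. SAA1 rose by 1.61 ± 0.35 (adjusted p = 0.0238), its other 2 probe sets rose by 1.26 and 1.74, and it was lost without each replicate in turn. Serum amyloid genes are near-identical copies whose signals the probe sets may share, so the identity of the copy is uncertain.

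**Figure D3:**
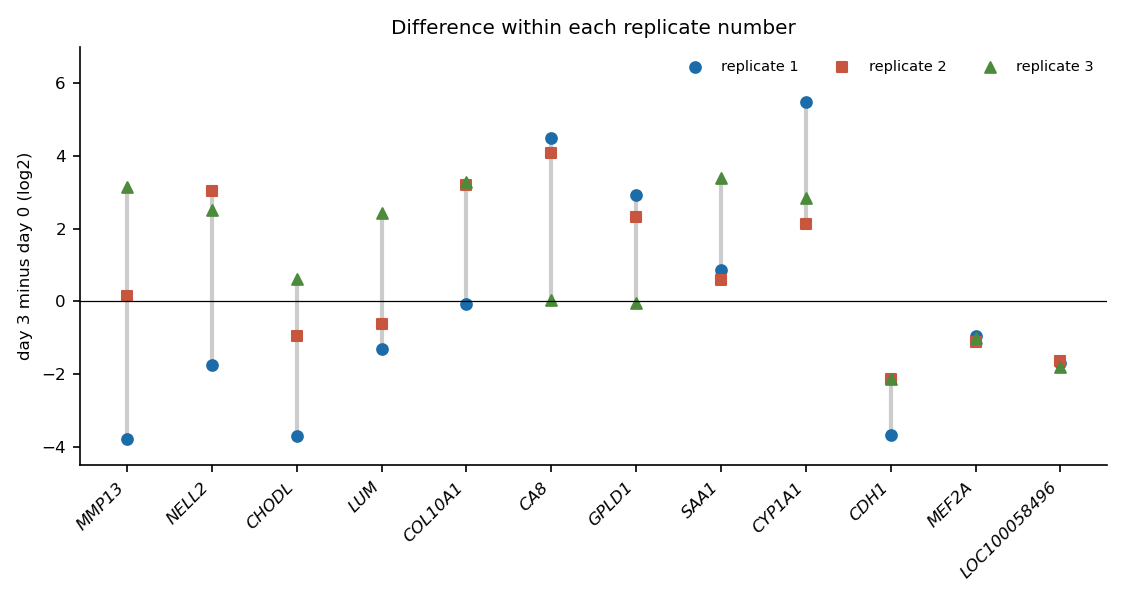
Day 3 minus day 0 difference on the log2 scale (y axis) for 12 genes (x axis), with 1 marker per replicate number and a grey bar from the lowest to the highest. The pairs of MEF2A and LOC100058496 lie within 1 unit of each other, while those of MMP13 run from -3.78 to 3.16 and replicate 3 of CA8 lies at 0.03.

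The fall of CDH1, which encodes the adhesion molecule E-cadherin, had one of the smallest p-values. CDH1 read 8.23, 6.85 and 7.59 at day 0 and 4.56, 4.71 and 5.45 at day 3. Each day 3 array was more than 1 below the lowest array of day 0, and CDH1 fell by 2.65 ± 0.35 (adjusted p = 0.000763), or 6.28-fold. Among 28 integrin and adhesion genes 2 were called, both lower (0.44% of all probe sets were lower), and the median was -0.08. ITGA3, an integrin subunit for laminin, read 8.46, 7.81 and 8.44 at day 0 and 6.44, 6.63 and 6.34 at day 3 and fell by 1.77 ± 0.31 (adjusted p = 0.00644). ITGA6, a further laminin-binding subunit, fell by 1.08 ± 0.23 (adjusted p = 0.0193), and their common partner ITGB1 differed by -0.44 ± 0.13 (adjusted p = 0.14). SGCD, a sarcoglycan of the membrane's dystrophin complex, fell by 2.18 ± 0.47 (adjusted p = 0.0236) with groups that overlapped. CDH1 was called without replicates 2 and 3 and had an adjusted p of 0.0541 without replicate 1, and ITGA3, ITGA6 and SGCD were lost without each replicate in turn.

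Several receptors and defence proteins of the cell surface fell. CD55, which shields cells from complement, read 10.84, 10.20 and 11.08 at day 0 and 7.15, 7.998 and 9.04 at day 3. The step was largest in replicate 1, all day 3 arrays were lower, and CD55 fell by 2.64 ± 0.45 (adjusted p = 0.00448). TLR6, which pairs with another Toll-like receptor to sense bacterial lipopeptides, read 8.29, 8.33 and 8.92 at day 0 and 6.65, 6.72 and 6.71 at day 3. The day 3 arrays lay within 0.1 of each other, and TLR6 fell by 1.82 ± 0.28 (adjusted p = 0.00232). CMKLR2, a chemerin receptor, fell by 1.89 ± 0.38, P2RY2, a nucleotide receptor, by 1.14 ± 0.21, SSTR2, a somatostatin receptor, by 1.61 ± 0.35, and GPRC5A by 1.43 ± 0.31, with adjusted p between 0.00955 and 0.0278. Innate defence, acute-phase and complement genes held 1 higher call, SAA1, and 1 lower, CD55, of 27 measured (0.251% and 0.44% of all probe sets), with a median of 0.23. Chemokines (20 measured), cytokines and their receptors (39), NF-kB genes (29), interferon genes (29) and prostaglandin and nitric oxide enzymes (27) held 0 calls, and their medians were between 0.03 and 0.15. CD55 was called without replicate 3 only, TLR6 also without replicate 1, and CMKLR2, P2RY2, SSTR2 and GPRC5A were lost without each replicate in turn.

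TIMD4, a phosphatidylserine receptor best known from macrophages, read 11.59, 9.80 and 12.33 at day 0 and 8.36, 7.27 and 9.94 at day 3. Replicate 2 was low and replicate 3 high on both days, so that the groups overlapped while each pair fell by more than 2. TIMD4 fell by 2.72 ± 0.65 (adjusted p = 0.0475), with 0.412 without the replicate block, and was lost without each replicate in turn. Of 13 macrophage and monocyte markers measured 0 were called in limma, 1 was higher at an unadjusted p under 0.05, the median difference was 0.09, and their summed level ran from 9.10 to 9.37 at day 0 and from 8.93 to 9.22 at day 3. Osteoclast markers, which include proteases that chondrocytes also make, had a summed level from 10.45 to 10.98 at day 0 and from 10.94 to 11.94 at day 3, with 0 of 7 called. Markers of neutrophils, lymphocytes, endothelium, red cells, bone, synovium, fat and muscle, and pericytes also held 0 calls. Of 11 chondrocyte markers CNMD alone was called, against 0.251% of all probe sets called higher. The summed level of the 11 ran from 13.75 to 13.87 at day 0 and from 13.52 to 13.80 at day 3.

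S100A2, a calcium-binding protein of the S100 family, read 10.45, 10.31 and 10.67 at day 0 and 7.92, 7.30 and 9.22 at day 3. Day 0 arrays were close to each other and all above day 3, and S100A2 fell by 2.33 ± 0.34 (adjusted p = 0.00132). HMGA1, an architectural chromatin protein linked to growth, read 10.25, 10.42 and 10.39 at day 0 and 8.73, 8.004 and 8.14 at day 3. Its day 0 arrays were nearly equal and lay above all of day 3, and HMGA1 fell by 2.06 ± 0.37 (adjusted p = 0.00689). CCND1, the cyclin that drives entry into the cell cycle, read 8.002, 8.56 and 8.60 at day 0 and 7.09, 6.42 and 7.18 at day 3 and fell by 1.49 ± 0.23 (adjusted p = 0.00279), the 1 call among 41 cell cycle and DNA replication genes, whose median was -0.09. SESN2 and BTG1, which restrain growth, fell by 1.05 ± 0.24 and 0.93 ± 0.22 (adjusted p = 0.0384 and 0.0456). They were the 2 calls among 18 p53 targets and cell cycle inhibitors, against 0.44% of all probe sets called lower. MEF2A, a transcription factor of muscle and growth-plate cartilage, fell by 1.02 ± 0.14 (adjusted p = 0.00107) with pairs that were nearly equal. LOC100058496, which the annotation gives no name beyond this symbol, had the smallest p of all: it read 5.08, 5.36 and 6.02 at day 0 and 3.38, 3.72 and 4.23 at day 3 and fell by 1.71 ± 0.19 (adjusted p = 6.27e-05). S100A2, HMGA1 and MEF2A were called without replicate 3 only, CCND1 also without replicate 1, and SESN2 and BTG1 were lost without each replicate in turn.

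Few members of the signalling and transport lists were called. TGFB1, the founding ligand of its family and a chondrocyte growth factor, read 9.71, 8.14 and 9.03 at day 0 and 7.26, 7.44 and 7.40 at day 3. The day 3 arrays were alike and below all of day 0, and TGFB1 fell by 1.59 ± 0.30 (adjusted p = 0.00955). BMPR1B, a receptor for bone morphogenetic proteins, fell by 1.03 ± 0.21 (adjusted p = 0.0147). TGFB1 and BMPR1B were the 2 calls among 43 genes of the TGF-β and BMP pathways, against 0.44% of all probe sets called lower. The median of the list was -0.02. AQP3, a channel for water and glycerol, read 8.76, 8.46 and 9.69 at day 0 and 7.02, 6.38 and 8.12 at day 3 and fell by 1.80 ± 0.34 (adjusted p = 0.00957). KCNN4, a calcium-activated potassium channel, read 6.21, 7.002 and 6.94 at day 0 and 4.95, 5.49 and 5.17 at day 3 and fell by 1.52 ± 0.28 (adjusted p = 0.0083). AQP3 and KCNN4 were the 2 calls among 30 osmolyte, water and ion transport genes, against the same 0.44%. Of the 30, 9 leaned lower (5.37% of all probe sets did) and 3 higher (5.1%) with an unadjusted p below 0.05, and the median was -0.15. SLC40A1, the iron exporter ferroportin, fell by 1.04 ± 0.19, and NT5E, the surface enzyme that makes adenosine, by 0.76 ± 0.18 (adjusted p = 0.0083 and 0.0414). KCNN4 was called without replicate 1, TGFB1 without replicate 2 and AQP3 without replicate 3 only, and BMPR1B, SLC40A1 and NT5E were lost without each replicate in turn.

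Of 25 measured ribosome biogenesis genes 23 were below 0, 14 had an unadjusted p under 0.05 on the lower side against 5.37% of all probe sets, and the median was -0.32. Among these 25, only RRP9, of the small-subunit processing complex, passed the adjusted threshold and fell by 0.85 ± 0.17 (adjusted p = 0.0175). Genes outside the list were not counted. The median of the list was -0.09, -0.41 and -0.55 in replicates 1, 2 and 3. Of the 30 unfolded protein and amino acid stress genes 3 were called, all lower (0.44% of all probe sets were), with a list median of -0.20. PSAT1, which makes serine, read 8.23, 7.73 and 8.78 at day 0 and 6.07, 5.31 and 7.39 at day 3 and fell by 1.99 ± 0.41 (adjusted p = 0.0171). TRIB3, a pseudokinase induced by amino acid stress, fell by 1.10 ± 0.23 (adjusted p = 0.0193), and ATF6, a sensor of unfolded protein, by 0.70 ± 0.11 (adjusted p = 0.00279). Asparagine synthetase, ASNS, differed by -1.18 ± 0.30 (adjusted p = 0.0604). RRP9, PSAT1, TRIB3 and ATF6 were lost without each replicate in turn.

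Aminoacyl-tRNA synthetases of the cytosol, which load amino acids onto their tRNAs, were gathered into a list after their values were seen. Of 18 measured 5 were called, all lower (0.44% of all probe sets were), 12 had an unadjusted p under 0.05 on the lower side (5.37% of all), and the median was -0.63. Since the list was chosen for these values, its counts only describe it. GARS1, the glycine enzyme, read 10.02, 9.93 and 10.75 at day 0 and 9.23, 8.91 and 9.47 at day 3 and fell by 1.04 ± 0.22 (adjusted p = 0.0195). MARS1, the methionine enzyme, read 9.38, 9.38 and 9.85 at day 0 and 8.65, 8.65 and 8.67 at day 3 and fell by 0.88 ± 0.17 (adjusted p = 0.014). Both had groups that did not overlap, and day 3 of MARS1 was almost the same in the 3 replicates. The tyrosine, valine and asparagine enzymes YARS1, VARS1 and NARS1 fell by 1.01 ± 0.24, 0.80 ± 0.18 and 0.65 ± 0.15, with adjusted p between 0.0325 and 0.0401. KARS1, the lysine enzyme, averaged 11.47 ± 0.07 on day 0 and 11.69 ± 0.12 on day 3 (± SD of 3 arrays). All 5 calls were lost without each replicate in turn.

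Further lists of housekeeping genes held 0 calls. The proteasome genes (30 measured) had a median of -0.21 with 9 lower at an unadjusted p under 0.05, the translation factors (25) one of -0.10 with 7 lower, and the oxidative phosphorylation subunits (29) one of -0.13 with 3 lower. Of all probe sets 5.37% were lower at that threshold. In replicates 1, 2 and 3 the median was -0.02, -0.37 and -0.13 for the proteasome genes and -0.08, -0.16 and -0.07 for the translation factors. For the oxidative phosphorylation subunits it was 0.14, -0.39 and -0.01, so that replicate 1 went the other way. Of 32 ribosomal protein genes 30 were above 0 and 2 below, with a median of 0.06, and 0 passed in limma even at an unadjusted p under 0.05. CYCS, the electron carrier cytochrome c, fell by 1.06 ± 0.23 (adjusted p = 0.0215) and was lost without each replicate in turn. The plot of gene lists sets these medians side by side, with few filled points in any list.

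**Figure D4:**
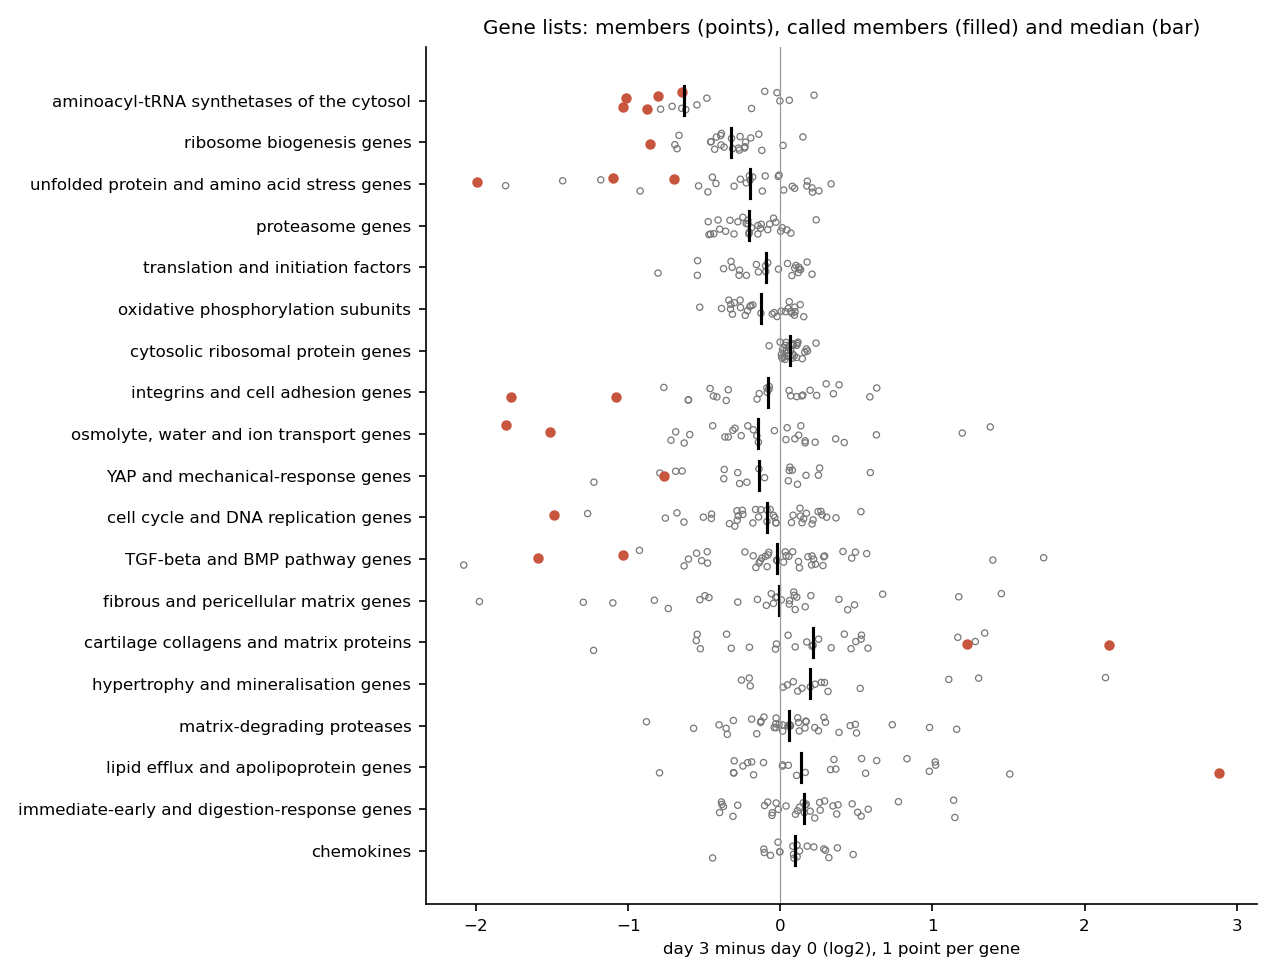
Day 3 minus day 0 difference on the log2 scale (x axis) of the members of 19 gene lists (y axis), with 1 point per gene, filled where the adjusted p was under 0.05, and a bar at each list's median. The aminoacyl-tRNA synthetases lie furthest left at a median of -0.63, and the ribosomal protein genes are packed around 0.06.

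A microRNA precursor also fell. MIR29B, of the microRNA-29 family that represses collagen genes, read 5.13, 5.52 and 6.73 at day 0 and 2.71, 2.57 and 3.86 at day 3. The day 3 arrays were all below day 0, with replicate 3 the highest on both days, and MIR29B fell by 2.75 ± 0.52 (adjusted p = 0.00982). Its day 3 signals lay near the low end of the arrays' range and were not shown to be above background, so that the size of the fall is uncertain. Its relative MIR29A read 6.34, 7.02 and 7.20 at day 0 and 4.50, 5.81 and 5.08 at day 3, without overlap, and differed by -1.72 ± 0.48 (adjusted p = 0.1). MIR222 differed by -1.59 ± 0.40 (adjusted p = 0.0604) and MIR221 by -1.23 ± 0.52 (adjusted p = 0.367), so that 1 of these 4, a list made after values were seen, was called. MIR29B-2, the second gene copy of the same microRNA, overlapped between days and differed by -0.50 ± 0.36 (adjusted p = 0.701). Signals under these symbols cannot be read as levels of the mature microRNAs. MIR29B was called without replicate 3 only.

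Genes known for answering tissue injury and digestion held 0 calls. Cells were freed by digestion on both days alike, so a response shared by both days cannot appear in this difference. Of 35 immediate-early and digestion-response genes 6 were higher (5.1% of all probe sets were) and 1 lower when p-values were left unadjusted at 0.05, and the median was 0.16. JUN differed by 0.78 ± 0.19 (adjusted p = 0.0576), FOS by 0.23 ± 0.28 and EGR1 by -0.01 ± 0.20 (adjusted p = 0.867 and 0.993). FOS and EGR1 signals were high on both days, at 10.27 ± 0.30 and 11.93 ± 0.13 on day 0 (± SD of 3 arrays). Heat shock and chaperone genes (16 measured) had a median of 0.15. Matrix-degrading proteases (40 measured) had a median of 0.06 and 0 calls. MMP13, a collagenase, read 9.76, 5.15 and 6.76 at day 0 and 5.98, 5.31 and 9.91 at day 3. It was high at day 0 in replicate 1 and at day 3 in replicate 3, and the difference was -0.15 ± 1.12 (adjusted p = 0.985). MMP1 differed by 1.16 ± 0.38, MMP3 by -0.19 ± 0.54 and the aggrecanase ADAMTS5 by 0.98 ± 0.54, none of which passed. The glycolysis and hypoxia genes (40 measured) held INSIG2 as the 1 call, against 0.251% of all probe sets called higher. Their median was 0.19, and VEGFA differed by 0.11 ± 0.37.

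The replicates differed widely in their own changes. At least 2-fold differences between day 0 and day 3 numbered 913 probe sets in replicate 1, 939 in replicate 2 and 1033 in replicate 3. Only 56 had them in the same direction in all 3 pairs, 26 higher and 30 lower, while 111 were at least 2-fold higher in 1 pair and at least 2-fold lower in another. NELL2, a secreted glycoprotein, had pair differences of -1.74, 3.03 and 2.53, CHODL, a membrane lectin, of -3.69, -0.96 and 0.62, and LUM, the proteoglycan lumican, of -1.30, -0.63 and 2.42. LOX, which crosslinks collagen, had 3.58, 0.51 and 0.27. By the SD of the 3 pair differences MMP13 was the widest named gene after MHCX1, and the part of the day 0 array of replicate 1 in it was not tested.

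The later days, harvested at 9, 15, 21 and 27, show where the levels of the 3-day genes lay afterwards. Between day 9 and day 27, in arrays other than the 6 compared above, 18 of 25923 probe sets (0.0694%) passed in limma, against 179 between day 0 and day 3. Of the 65 higher at day 3, 0 were called between day 9 and day 27, and 21 were above 0 and 44 below with a median of -0.13. Of the 114 lower, 1 was called, 62 were above 0 and 52 below, and the median was 0.07 against 0.00 over all probe sets. The 1 was THBS3, which was at 6.91, 8.17, 8.51 and 8.48 at days 9, 15, 21 and 27 and so higher at day 27 than at day 9 by 1.57 (adjusted p = 0.00965). THBS3 lost this call without replicate 1 (adjusted p = 0.254), without replicate 2 (0.316) and without the replicate block (0.07). The 18 calls became 6 without replicate 1, 0 without replicate 2, 35 without replicate 3, and 6 when the day 27 array of replicate 3 alone was left out. Unadjusted, 15 of the 65 were lower (4.9% of all probe sets were) and 3 higher (4.22%), and of the 114 there were 4 lower and 9 higher. Both contrasts take each probe set's spread from the same fit, and calls favour probe sets with a small spread. The shares of called probe sets passing here can be raised by that alone, so these counts are not separate support.

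Single genes took several courses, given here as unstimulated means of 3 arrays and without a test between neighbouring days. CYP1A1 was at 7.93, 6.19, 6.90 and 6.94 at days 9, 15, 21 and 27, below its day 3 level from day 15 on but above that of day 0. APOA1 was at 8.29, 9.98, 10.55 and 10.21 at days 9, 15, 21 and 27, with its one dip at day 9. CILP, at 13.21, 13.17, 12.89 and 12.76 at days 9, 15, 21 and 27, and CNMD, at 8.57, 10.26, 9.66 and 9.59 at days 9, 15, 21 and 27, stood above their day 3 means at all later days. ANGPT2 went from 6.77 at day 3 through 5.93, 5.21, 4.67 and 4.19 at days 9, 15, 21 and 27, below its day 0 mean of 4.86 on days 21 and 27. HMGA1 was at 6.65, 6.58, 6.70 and 6.68 at days 9, 15, 21 and 27, below its day 3 mean throughout, and CDH1 was at 4.21, 4.11, 4.83 and 4.61 at days 9, 15, 21 and 27, near its day 3 mean of 4.91. CA8, which had been at 4.68 on day 0 and 7.56 on day 3, was at 7.56, 5.55, 5.14 and 4.94 at days 9, 15, 21 and 27. None of these but THBS3 passed between day 9 and day 27 in the fit of all replicates, where the adjusted p was 0.0736 for ANGPT2, 0.126 for APOA1, 0.126 for CNMD and 0.178 for CA8. Without replicate 3, CNMD (adjusted p = 0.0281) and CA8 (adjusted p = 0.00495) passed as well, CNMD higher and CA8 lower at day 27.

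**Figure D5:**
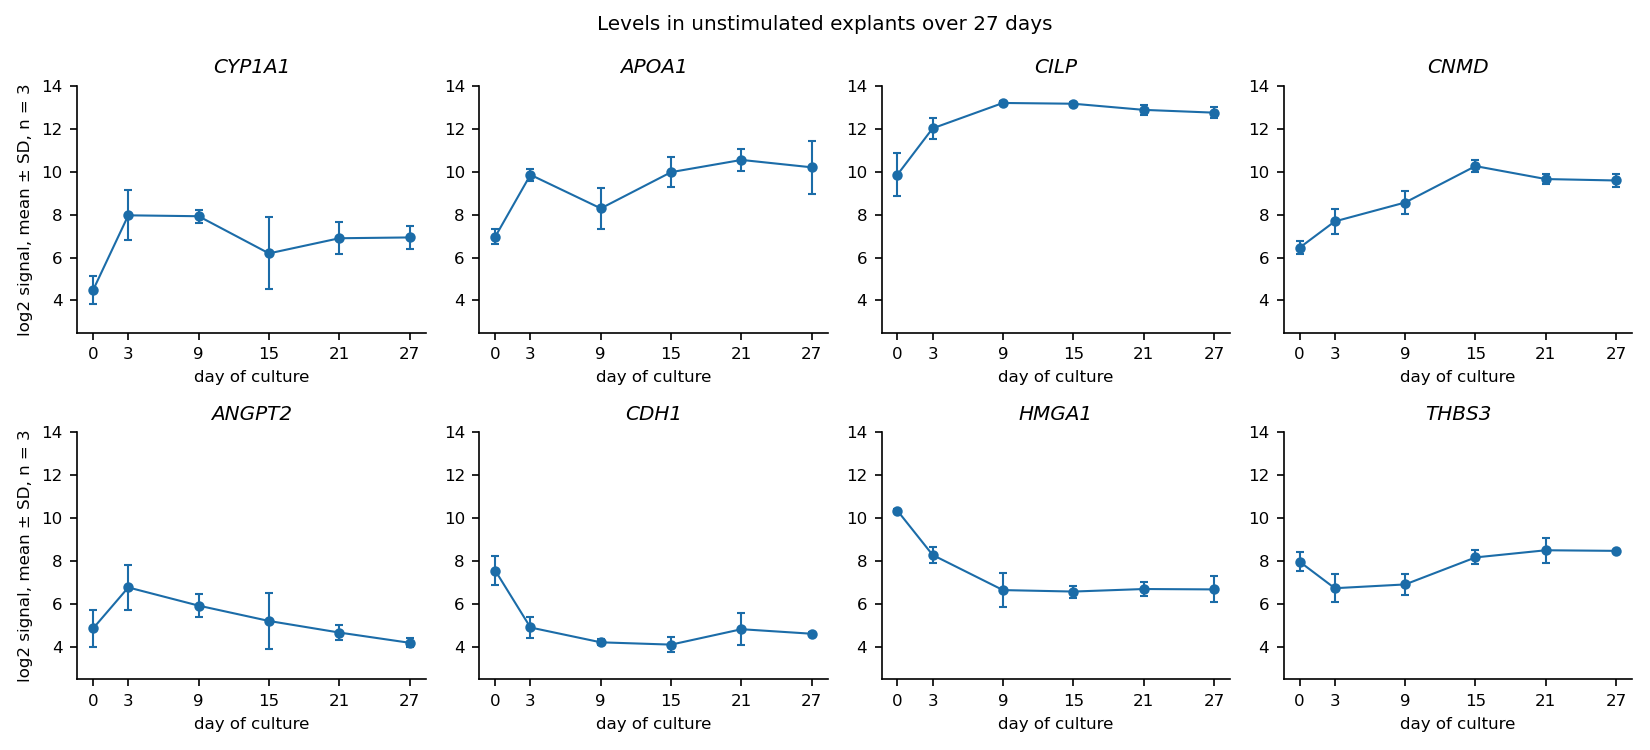
Mean log2 signal with SD bars (y axis, n = 3 arrays per day) of 8 genes in unstimulated explants against the day of culture (x axis, days 0 to 27). CNMD and CILP stay above their day 0 level at all later days, HMGA1 and CDH1 below it, ANGPT2 peaks at day 3, and THBS3 dips at day 3 and stands at 8.48 on day 27.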

How the data were processed

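Samples were 33 Affymetrix gene expression arrays of equine cartilage explants, in 11 groups of 3. Per the submitters' processing notes the authors used Affymetrix Expression Console and RMA, with limma named and no versions given, and the deposited values, from 1.50 to 13.9, were read as log2 signal from their range. The probe set annotation gave 1 symbol to 16789 probe sets, several to 343 (not named) and none to 8791. The rest was computed here. A gene with several probe sets is described by the one with the highest mean over all arrays. limma 3.58.1 in R 4.3.3 (lmFit, eBayes) fitted all 33 arrays with 1 mean per treatment and day and the replicate number as a block, which left 20 residual degrees of freedom, and contrasted day 3 with day 0. Two-sided p-values from the 25923 probe sets were corrected together (Benjamini-Hochberg), and calls needed an adjusted p under 0.05. An exact permutation test of 3 against 3 cannot go below 0.1. Errors after ± are SE of the fit unless marked SD. Summed levels of a marker list are log2 of the sum of linear signals.

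Each replicate number goes with 1 experiment prefix in the sample descriptions and was taken as 1 horse, an inference from 3 horses and 3 numbers. The numbers were treated as pairs, as the comparison was set. Deviations from group means correlated between day 0 and day 3 of the same number at 0.14, 0.31 and 0.31 for numbers 1, 2 and 3, each above 0.1, and at -0.27 to -0.01 between different numbers. Deviations cancel within a group, so the negative values follow from the positive ones and add no support. The random-block fit put the correlation within a number at 0.07. A batch that goes with the number would give such correlations too.

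The members, the 38 pathway lists and the 11 marker lists were chosen with earlier results of these data known, and 3 lists and some single genes after the values compared here were seen. Named are the 12 highest and 12 lowest called genes with the same sign in all 3 pairs, up to 4 members of smallest p per list, 27 measured genes of a set of 30, and genes chosen after their values were seen (among them MHCX1, MIR29B-2, LBP, NELL2, CHODL, LUM, LOX, GPLD1, INSIG2, STEAP1, CPE, POR, SCAP, COL15A1, SSTR2, P2RY2, GPRC5A, MEF2A, LOC100058496, ZDHHC21, THBS3, FGF1, CYCS and the added lists). No set test was run. Alternatives were no block, a random block, fewer arrays, brighter probe sets, renewed quantile normalisation, other eBayes settings and each replicate left out. On data simulated from the fitted model with independent noise, the fit returned on the median the fold changes that had been put in. That checks the code only and does not test whether the model holds for the real arrays.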

Additional observations from a re-analysis of the deposited data

How the results depend on the processing

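In each alternative the calls shared with the 179 kept their direction, and 0 of the 179 changed sign. In most alternatives this was fixed in advance, since the balanced design gives the same day 3 minus day 0 difference there. Only renewed quantile normalisation and leaving out a replicate number could have changed a sign, and the latter reuses pairs of the main fit. The count of calls was 104 without the replicate block, with 62 at least 2-fold, and 149 with the replicate number as a random block, so that the pairing by number moved the count by over 1.5 times. It was 0, and 0 at least 2-fold, with only the 6 arrays compared, whether blocked or not (lowest adjusted p 0.0551 and 0.0510, with 2910 and 2212 probe sets at an unadjusted p under 0.05); these fits rest on fewer residual degrees of freedom, 2 with the block. It was 54, with 44 at least 2-fold, in the 18 unstimulated arrays, and 273 of 12961 among the brighter probe sets, where fewer were adjusted for. Renewed quantile normalisation gave 209, of which 165 were among the 179, trended eBayes 225 and robust eBayes 177. Leaving out 1 replicate number gave 10 to 30 calls and 10 to 28 at least 2-fold. Between day 9 and day 27 the 18 calls became 9 without the block, 0 in the unstimulated arrays, 0 to 35 with 1 number left out, and 6 without the day 27 array of replicate 3, a setting added after seeing the data that gave 218 calls between day 0 and day 3, 103 of them at least 2-fold. The cause of these differences was otherwise not tested. With 3 arrays a group, array noise and dim signals limit which small differences can be seen.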
